A study of Homo sapiens with 9 samples.

Results

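The genes described here are those of G protein-coupled and Frizzled receptors, taken by symbol: orphan and related receptors (GPR followed by a number), adhesion receptors (ADGR), and receptors for nucleotides (P2RY), chemokines (CCR, CXCR), formyl peptides (FPR), lysophosphatidic acid (LPAR), sphingosine 1-phosphate (S1PR), prostaglandin E (PTGER), histamine (HRH), adenosine (ADORA) and Wnt proteins (FZD). The rule found 141 genes among the 14884 that the array's annotation names, each represented by its brightest probe set. Of these, 135 are protein-coding, 3 are long non-coding RNAs (ADORA2A-AS1, FZD4-DT and FZD10-AS1) and 3 are transcribed pseudogenes, so that these 6 encode no receptor. GPR15LG also matched the rule, although it encodes a ligand, and GPR89A and GPR89B encode Golgi pH regulators. The table names 0 P2RY genes, and that family was not analysed here.

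The cells were THP-1, a human monocytic leukaemia line, brought to a macrophage-like (M0) state with the phorbol ester PMA, an activator of protein kinase C. All 9 cultures carried that treatment, and for 16 h they were given vehicle (3 replicates), cisplatin at 0.5 µM (3 replicates), a platinum drug that crosslinks DNA, or osimertinib at 100 nM (3 replicates), a covalent inhibitor of mutant epidermal growth factor receptor. RNA of every replicate went on its own array, of the type Affymetrix Human Gene 2.0 ST. The sources used here give neither the composition of the vehicle nor the PMA dose, and 1 cell line under 1 dose of each drug stands for each group. The labels call the replicates independent and biological.

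G protein-coupled receptors cross the plasma membrane repeatedly and pass the binding of an extracellular ligand to G proteins inside the cell, which raise or lower cyclic AMP or release calcium. Arrestins and receptor kinases end the signal, and RGS proteins switch the G protein off. In macrophages these receptors guide migration along chemokine gradients, sense bacterial peptides and lipids, and restrain or promote inflammatory output, as prostaglandin E and adenosine do. Frizzled receptors share the fold and bind Wnt proteins together with a co-receptor, which stabilises beta-catenin or acts on the cytoskeleton.

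The deposited values were read as log2 intensities, and they ran from 0.65 to 13.17 on the 9 arrays. Of the macrophage markers, 9 of 15 were named, with vehicle means of 9.44 for CD68, 8.57 for CSF1R, 8.39 for CTSS, 7.49 for TYROBP and 7.21 for SPI1, whereas LYZ (3.12) and CD163 (2.50) were below the level limit of 4.28 described next, and CD14 (4.22) was close to it. The summed macrophage markers lay at 55.4 to 56.0 on the vehicle arrays and 55.9 to 58.2 on the treated arrays, ranges that barely overlap. With cisplatin and osimertinib the means were 9.95 and 9.74 for CD68, 9.07 and 8.86 for CSF1R, and 8.74 and 8.76 for CTSS. CD14, LYZ and TYROBP also had higher means with each drug than with vehicle. SPI1 (7.23 and 7.21) stayed near its vehicle mean, and CD163 (2.47 and 2.33) was lower. MSR1 had 4.70, 4.75 and 4.58 with vehicle, cisplatin and osimertinib. The part of the macrophage markers in the results was not tested. Among markers of other lineages, DCN (fibroblast) was at 1.56, CD2 (T cell) at 3.06 and CEACAM8 (neutrophil) at 1.65 with vehicle. The 3 named neutrophil markers, all 3 below the limit, together lay at 7.88 to 8.13 on the vehicle arrays and 8.43 to 8.70 on the treated arrays. Of them CSF3R had means of 3.32, 3.90 and 3.84 with vehicle, cisplatin and osimertinib. MPO had 3.05, 3.05 and 3.04, and CEACAM8 1.65, 1.58 and 1.77, so the sum moved mainly with CSF3R. Markers named from the T cell, epithelial and endothelial lists reached 4.47 (CD8A), 7.71 (KRT18) and 5.85 (PECAM1) with vehicle. Of 4 B cell markers 0 were named. The first principal component, with 57.7% of the variance, parted the vehicle arrays from the treated ones. On the second, with 12.1%, cisplatin replicate 1 (15.5) and osimertinib replicate 1 (-11.2) stood apart, so counts are also given without them.

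Most receptor genes were dim. The level limit for testing was the median of the gene means over the 9 arrays, 4.28, and 41 of the 141 genes reached it while 100 did not. The last genes above the limit were GPR84 (4.32) and FZD7 (4.28), and the next below were S1PR5 (4.22) and FZD5 (4.17). Among families, 18 of 72 GPR genes were tested, 7 of 20 ADGR, 5 of 12 FZD, 2 of 8 CCR, 2 of 7 CXCR, 2 of 4 LPAR, 2 of 4 HRH, 1 of 4 S1PR, 1 of 4 ADORA and 1 of 3 PTGER. None of the 3 formyl peptide receptor genes was tested, since their means were 1.74 to 2.67. The chemokine receptors below the limit had means of 1.77 to 3.17 (CCR) and 2.28 to 3.97 (CXCR). A value under the limit is no proof that a transcript is absent, because background was not measured here.

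**Figure D1:**
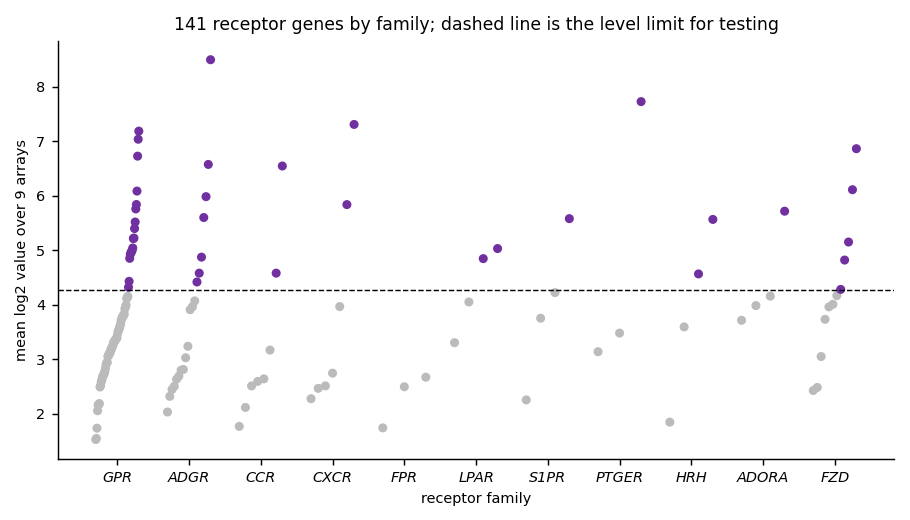
Mean log2 value over the 9 arrays (vertical axis) of each of the 141 receptor genes, by family (horizontal axis); purple points reach the level limit of 4.28 (dashed line) and grey points do not. The 3 FPR genes lie at 1.74 to 2.67, and the highest point is ADGRE5.

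The 6 tested receptor genes with the highest vehicle means included none of those with the largest changes. They were ADGRE5, which encodes the leukocyte adhesion receptor CD97, at 8.55, PTGER4, which encodes the prostaglandin receptor EP4, at 7.61, GPR137B at 7.23, GPR107 at 7.13, FZD6 at 6.90 and GPR89B at 6.85. CXCR4, which is among the genes with the largest changes, came next at 6.848, beside 6.854 for GPR89B. Probe sets differ in their response, so these values do not rank transcripts by abundance.

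The first comparison asked which receptor transcripts differed between cisplatin and vehicle. FZD8, CXCR4, GPR158, CCR1, CXCR5, GPR6, HRH1 and ADGRG1 were higher with cisplatin, and GPR52, ADGRA3 and LPAR6 were lower. The counts are thus 8 higher and 3 lower of 41 (26.8%), where 31.0% of all 7442 tested genes were called, 16.5% higher and 14.5% lower (limma with Benjamini-Hochberg adjustment over all tested genes, adjusted p under 0.05). The share of receptor genes called was thus near that of all genes. Their median log2 fold change was 0.048, against 0.032 over all tested genes. Without vehicle replicate 3 the number of higher genes was 5. The 3 cisplatin arrays lay entirely apart from the 3 vehicle arrays in 18 of the 41 (43.9%), beside 42.3% of all tested genes.

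In the second comparison osimertinib took the place of cisplatin. FZD8, GPR158, CXCR5, CCR1, FZD3, ADGRL2, GPR108 and PTGER4 were higher, and GPR52, ADGRG1, ADGRA3 and ADGRE5 were lower. These are 8 higher and 4 lower of 41 (29.3%), beside 30.6% of all tested genes (16.9% higher, 13.7% lower), and the medians were 0.023 and 0.037. The higher count was 4 without vehicle replicate 3, 4 without osimertinib replicate 1 and 4 without both cisplatin replicate 1 and osimertinib replicate 1. With median centring of the arrays the split was 10 higher and 3 lower. The groups were entirely apart in 19 of the 41 (46.3%), beside 44.1% of all tested genes. Both comparisons use the same 3 vehicle arrays, so their results are set side by side and not counted as agreement. In bulk RNA, a smaller share of cells with a transcript and less of it in each cell cannot be told apart.

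**Figure D2:**
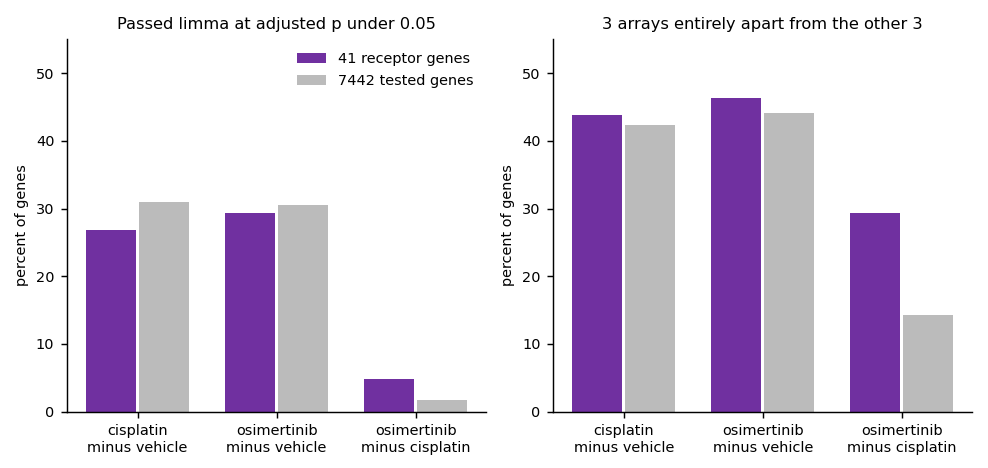
Percent of the 41 tested receptor genes (purple) and of all 7442 tested genes (grey) that were called by limma (left) or whose 3 arrays of one group all lay on one side of the 3 arrays of the other (right), for each comparison on the horizontal axis. With each drug against vehicle the purple and grey bars are close (26.8% and 31.0%, 29.3% and 30.6%), and between the drugs 29.3% of receptor genes against 14.3% of all genes had groups apart.

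Among the Wnt receptors, FZD8 had the largest change of any receptor gene tested. FZD8 encodes Frizzled-8, which binds Wnt proteins at the cell surface (Entrez gene 8325). Its log2 level was 4.98, 5.13 and 5.16 on the vehicle arrays, 6.63, 6.92 and 6.91 with cisplatin, and 6.42, 6.52 and 6.36 with osimertinib. The 3 groups did not overlap: vehicle was lowest, osimertinib intermediate and cisplatin highest. FZD8 was 3.32-fold higher with cisplatin (1.73 as log2 fold change, SE 0.10, limma adjusted p = 7.75e-08, 3 arrays each) and 2.54-fold higher with osimertinib (1.34, SE 0.10, adjusted p = 7.23e-07). Between the drugs the difference, osimertinib minus cisplatin, was -0.39 (SE 0.10, adjusted p = 0.0778). That difference passed the test without cisplatin replicate 1 (-0.48, adjusted p = 0.0225), with both replicates that stood apart left out (adjusted p = 0.0458), after a further quantile normalization (adjusted p = 0.0166) and with a stricter level limit (adjusted p = 0.0442). In the other 14 of 18 alternatives it did not pass, with adjusted p up to 0.277 (without cisplatin replicate 3). FZD8 overlaps LOC124902528, a protein-coding gene on the same strand, and MIR4683 in the RefSeq annotation. Neither was among the tested genes, and their part in the FZD8 result was not tested.

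The other Frizzled genes above the limit moved less. FZD3, a Frizzled known from axon guidance, was at 4.79, 4.46 and 4.60 with vehicle, 4.54, 5.02 and 4.82 with cisplatin, and 5.14, 4.80 and 5.22 with osimertinib. Only its osimertinib arrays lay above all vehicle arrays, and it rose by 0.44 (SE 0.15, adjusted p = 0.0379). FZD7, which was near the limit, had differences of 0.29 and 0.31 (adjusted p = 0.157 and 0.131), FZD1 -0.14 and -0.06 (adjusted p = 0.436 and 0.734), and FZD6 -0.13 and 0.02 (adjusted p = 0.33 and 0.889), cisplatin first in each pair.

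Genes of the Wnt pathway outside the receptor family were few among the tested genes. Of 43 genes for co-receptors, intracellular components and inhibitors, 33 were named and 10 tested, and 2 were higher with cisplatin and 1 with osimertinib, with 0 lower. These are 20% and 10% of the 10, beside 31.0% and 30.6% of all tested genes. AXIN1, a scaffold of the complex that degrades beta-catenin, rose by 0.44 with cisplatin (adjusted p = 0.0156) and 0.42 with osimertinib (adjusted p = 0.0216). ZNRF3, a ubiquitin ligase that removes Frizzled receptors from the surface, rose by 0.42 with cisplatin (adjusted p = 0.023) and differed by 0.22 with osimertinib (adjusted p = 0.23). The co-receptor LRP6 had differences of -0.29 and -0.09 (adjusted p = 0.15 and 0.68) and the kinase GSK3B -0.06 and 0.01. The calls of AXIN1 were lost without vehicle replicate 1 (adjusted p = 0.0657 and 0.0861) or vehicle replicate 3 (adjusted p = 0.0582 and 0.0742). They were also lost without cisplatin replicate 3 (adjusted p = 0.0694, cisplatin) and without osimertinib replicate 1 (adjusted p = 0.0897, osimertinib). That of ZNRF3 was lost without vehicle replicate 2 (adjusted p = 0.102), vehicle replicate 3 (adjusted p = 0.0633) or cisplatin replicate 3 (adjusted p = 0.11). Of 19 Wnt ligand genes 1 was named and 0 were tested.

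CXCR4 was the chemokine receptor that changed most, and it responded more to cisplatin than to osimertinib. It encodes the receptor for CXCL12, which retains leukocytes in bone marrow (Entrez gene 7852). The CXCR4 values were 6.96, 6.97 and 6.62 with vehicle, 7.78, 8.04 and 8.04 with cisplatin, and 7.18, 7.21 and 7.02 with osimertinib. The cisplatin arrays stood well above both other groups, and the osimertinib arrays just above vehicle. With cisplatin CXCR4 rose by 1.10 (SE 0.10, 2.15-fold, adjusted p = 5.81e-06), while the difference with osimertinib was 0.29 (SE 0.10, adjusted p = 0.0512). CXCR4 was lower with osimertinib than with cisplatin by the direct test (log2 fold change -0.81, SE 0.10, adjusted p = 0.00102). The osimertinib difference passed the test in 8 of 18 alternatives, among them the fits without vehicle replicate 1 (adjusted p = 0.0489), vehicle replicate 2 (adjusted p = 0.0454), cisplatin replicate 1 (adjusted p = 0.0344) or osimertinib replicate 3 (adjusted p = 0.0419). In the other 10 it did not pass, with adjusted p up to 0.227 (without vehicle replicate 3).

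CCR1 and CXCR5 were higher with each drug. CCR1, a receptor for CCL3 and CCL5 on monocytes (Entrez gene 1230), had log2 levels of 6.29, 6.12 and 5.97 with vehicle, 6.65, 7.16 and 7.04 with cisplatin, and 6.54, 6.63 and 6.54 with osimertinib. All treated arrays lay above all vehicle arrays. CCR1 rose by 0.82 with cisplatin (SE 0.12, adjusted p = 2.03e-04) and by 0.45 with osimertinib (SE 0.12, adjusted p = 0.0128; adjusted p = 0.0644 without vehicle replicate 3). Osimertinib minus cisplatin was -0.38 (SE 0.12, adjusted p = 0.193), and it passed the test without cisplatin replicate 1 (-0.53, adjusted p = 0.0197) and without both replicates that stood apart (adjusted p = 0.0457). In the other 16 of 18 alternatives it did not pass, with adjusted p up to 0.430 (without cisplatin replicate 3).

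CXCR5 encodes the receptor for CXCL13, best known from B cells and follicular helper T cells (Entrez gene 643). Its levels were 5.44, 5.36 and 5.35 with vehicle, 5.91, 6.24 and 6.36 with cisplatin, and 6.02, 5.95 and 5.94 with osimertinib. The vehicle arrays were the lowest, and the drug groups overlapped. CXCR5 rose by 0.79 (SE 0.11, adjusted p = 1.40e-04) and by 0.59 (SE 0.11, adjusted p = 0.00122), and the drugs differed by -0.20 (SE 0.11, adjusted p = 0.545). CXCR5 overlaps BCL9L in the RefSeq annotation, and BCL9L was higher as well, by 0.47 with cisplatin (adjusted p = 0.00176) and 0.33 with osimertinib (adjusted p = 0.0162); its part in the CXCR5 result was not tested. CCR7, which guides mature dendritic cells and lymphocytes to lymph nodes, had 4.64 on all 3 cisplatin arrays and differences of -0.03 and -0.21 (adjusted p = 0.888 and 0.166).

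The ligands of chemokine and formyl peptide receptors, taken as a list, moved in both directions. Of 43 chemokine and formyl peptide receptor ligands 39 were named and 13 tested. With cisplatin 5 were higher and 3 lower, with osimertinib 3 higher and 3 lower, and between the drugs 4 were lower with osimertinib and 0 higher. These are 61.5%, 46.2% and 30.8% of the 13, beside 31.0%, 30.6% and 1.75% of all tested genes. Of the 4, CCL4 (-0.71, adjusted p = 0.0487) lost its call without vehicle replicate 1 (adjusted p = 0.072), cisplatin replicate 1 (0.0967), 2 (0.137) or 3 (0.143), or osimertinib replicate 1 (0.184) or 2 (0.176). CCL20 (-0.58 and -1.36), CXCL5 (-1.34 and -1.58) and CXCL8 (-0.49 and -1.47) were lower with each drug, cisplatin first. CXCL12 and CXCL13, the ligands of CXCR4 and CXCR5, were below the level limit, with means of 3.52 and 1.79. CCL22 rose by 2.49 with cisplatin (adjusted p = 4.51e-12) and by 2.36 with osimertinib (adjusted p = 9.09e-12). CCL5, a ligand of CCR1, was at 6.28, 10.13 and 9.68 in the vehicle, cisplatin and osimertinib means. CCL3, another CCR1 ligand, was higher with cisplatin by 0.65 (adjusted p = 0.0115) and had a difference of -0.01 with osimertinib (adjusted p = 0.98). ANXA1, a ligand of the formyl peptide receptors, rose by 1.33 (adjusted p = 5.35e-06) and by 1.28 (adjusted p = 7.19e-06), while the 3 FPR genes stayed below the level limit.

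GPR158, an orphan receptor that binds glycine and the RGS7 complex in neurons (Entrez gene 57512), rose with each drug. The GPR158 probe set used was at 4.20, 4.88 and 4.27 with vehicle, 5.52, 6.01 and 5.84 with cisplatin, and 5.50, 5.43 and 5.39 with osimertinib, so every treated array was above every vehicle array. GPR158 rose by 1.34 (SE 0.17, adjusted p = 5.67e-05) and by 0.99 (SE 0.17, adjusted p = 5.52e-04), and osimertinib minus cisplatin was -0.35 (SE 0.17, adjusted p = 0.456). A dimmer probe set of the gene, with a mean of 3.76, had smaller differences of 0.26 and 0.22. With the mean over both probe sets the GPR158 changes were 0.80 and 0.61, a move of over 1.5 times that kept the calls.

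FZD8, GPR158, CXCR5 and CCR1 were called higher in each comparison with vehicle, which share the vehicle arrays, and the bases just before their start sites are shown so that their promoters can be compared. Whether the 4 genes move together was not tested. The windows are the 250 bases before the start in RefSeq (build GRCh38.p14): chr10:35642297-35642546 on the minus strand for FZD8, chr10:25174751-25175000 on the plus strand for GPR158, chr11:118893142-118893391 on the plus strand for CXCR5, and chr3:46208314-46208563 on the minus strand for CCR1. Capitals mark the only motif found among those searched, the GC box GGGCGG or its reverse complement CCGCCC.
FZD8: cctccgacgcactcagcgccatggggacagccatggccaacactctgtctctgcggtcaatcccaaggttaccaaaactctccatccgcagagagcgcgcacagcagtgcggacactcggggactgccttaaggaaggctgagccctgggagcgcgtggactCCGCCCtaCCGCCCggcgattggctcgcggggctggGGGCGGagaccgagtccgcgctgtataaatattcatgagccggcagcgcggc
GPR158: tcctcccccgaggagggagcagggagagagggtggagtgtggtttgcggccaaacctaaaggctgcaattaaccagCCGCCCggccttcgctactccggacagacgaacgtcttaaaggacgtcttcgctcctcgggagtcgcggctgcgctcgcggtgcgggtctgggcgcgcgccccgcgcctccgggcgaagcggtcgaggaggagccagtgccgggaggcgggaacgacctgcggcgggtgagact
CXCR5: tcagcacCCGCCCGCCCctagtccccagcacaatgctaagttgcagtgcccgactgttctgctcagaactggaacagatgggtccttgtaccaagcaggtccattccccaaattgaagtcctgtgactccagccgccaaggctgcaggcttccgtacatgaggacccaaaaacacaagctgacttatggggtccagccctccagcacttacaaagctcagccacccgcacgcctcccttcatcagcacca
CCR1: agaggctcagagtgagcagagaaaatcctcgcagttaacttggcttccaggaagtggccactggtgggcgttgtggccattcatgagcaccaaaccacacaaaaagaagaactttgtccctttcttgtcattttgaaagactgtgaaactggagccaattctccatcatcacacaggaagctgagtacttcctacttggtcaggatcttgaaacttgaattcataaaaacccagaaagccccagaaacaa
FZD8 held 3 GC boxes, CXCR5 2, which overlap, GPR158 1 and CCR1 0. Bases G and C made up 65.2% of the window in FZD8, 68.8% in GPR158, 57.2% in CXCR5 and 45.2% in CCR1. The median was 58.0% over 27305 genes, taken whatever their level on the arrays, and 65.2% over the 32 tested receptor genes with a sequence.

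Both strands were searched for 8 motifs: AP-1 (TGANTCA), the cyclic AMP response element (TGACGTCA), the NF-kB consensus, the heat shock element, the core of the antioxidant response element (TGACNNNGC), the E-box (CACGTG), the PU.1 core (GAGGAA) and the GC box. A sequence was available for 32 of the 41 tested receptor genes. The windows of all genes, 27305, were taken whatever the gene's level on the arrays, so they are not limited to tested genes. The GC box was found in 42.3% of all windows and in 71.9% of the 32, whose windows are richer in G and C as given above, and the part of that in the count was not tested. The other shares were, for AP-1 6.60% and 6.25%, for NF-kB 9.57% and 9.38%, for the PU.1 core 23.4% and 21.9%, and for the antioxidant core 11.0% and 15.6%. The heat shock element stood in 0.439% of all windows and the E-box in 6.49%, and each in 0 of the 32. The cyclic AMP response element was found in 1.77% of all windows and in 3 of the 32, those of GPR3, GPR6 and S1PR2. Where a gene had several starts the one listed first was used.

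GPR52 and ADGRA3 were lower with each drug. GPR52, an orphan receptor coupled to the G protein that raises cyclic AMP (Entrez gene 9293), was at 6.30, 6.29 and 6.51 with vehicle, 5.21, 5.61 and 5.52 with cisplatin, and 5.47, 5.07 and 5.86 with osimertinib. The vehicle arrays were all above the treated ones, and the osimertinib arrays were the most spread. GPR52 fell by 0.92 with cisplatin (SE 0.17, adjusted p = 9.91e-04) and by 0.90 with osimertinib (SE 0.17, adjusted p = 0.00112), and the drugs differed by 0.02 (SE 0.17). The gene lies inside RABGAP1L on the same strand, which differed by -0.25 with cisplatin (adjusted p = 0.076) and fell by 0.30 with osimertinib (adjusted p = 0.0325). Whether the GPR52 probes also read RABGAP1L transcripts was not tested.

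ADGRA3 encodes an adhesion receptor without a settled ligand (Entrez gene 166647). Its log2 levels were 5.14, 5.35 and 5.26 with vehicle, 4.52, 4.71 and 4.63 with cisplatin, and 4.80, 4.79 and 4.68 with osimertinib. The vehicle arrays stood above all 6 treated arrays. ADGRA3 fell by 0.63 (SE 0.10, adjusted p = 4.70e-04) and by 0.49 (SE 0.10, adjusted p = 0.00276), with 0.14 (SE 0.10, adjusted p = 0.689) between the drugs.

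ADGRG1 differed most between the drugs. It encodes the adhesion receptor GPR56, which binds collagen and marks cytotoxic lymphocytes and some leukaemic stem cells (Entrez gene 9289). The ADGRG1 levels were 5.67, 5.75 and 5.67 with vehicle, 5.82, 6.10 and 6.01 with cisplatin, and 5.21, 5.13 and 5.07 with osimertinib. The groups did not overlap, with cisplatin above vehicle and osimertinib below it. Osimertinib minus cisplatin was -0.84 (SE 0.098, 1.79-fold, adjusted p = 4.77e-04), and ADGRG1 fell by 0.56 with osimertinib against vehicle (SE 0.098, adjusted p = 7.49e-04). The rise with cisplatin was small, 0.28 (SE 0.098, adjusted p = 0.0444). It was lost without vehicle replicate 1 (adjusted p = 0.108), 2 (adjusted p = 0.0672) or 3 (adjusted p = 0.11), cisplatin replicate 2 (adjusted p = 0.161) or 3 (adjusted p = 0.123), osimertinib replicate 2 (adjusted p = 0.0562) or 3 (adjusted p = 0.0532), and without the level limit (adjusted p = 0.0702).

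**Figure D3:**
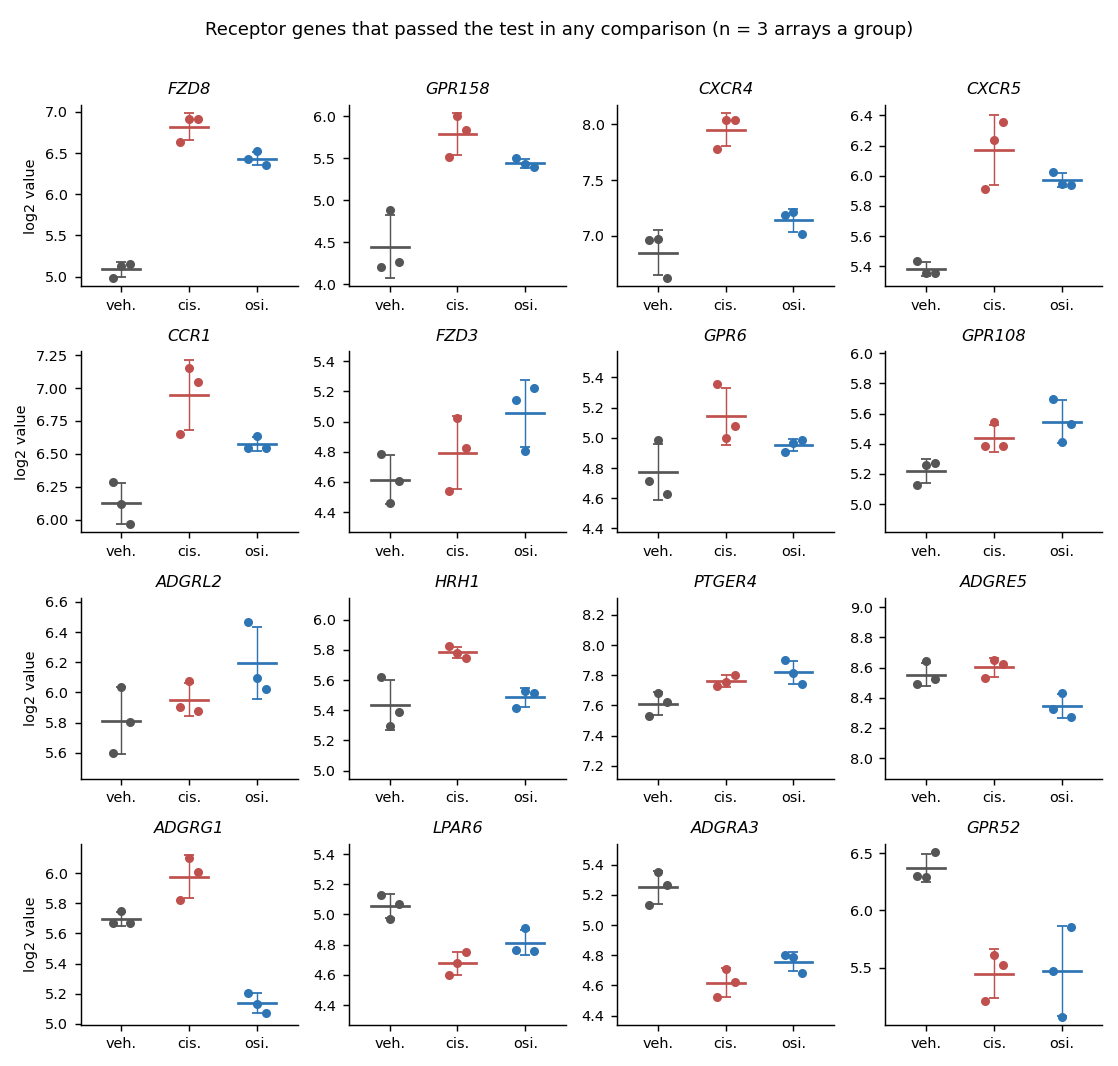
Log2 values (vertical axis, own range in each panel) on the vehicle, cisplatin and osimertinib arrays of the 16 receptor genes called in any comparison; points are arrays, long horizontal lines are means and error bars are SD (n = 3). FZD8, GPR158 and CXCR4 have the largest differences between the cisplatin and vehicle means (1.73, 1.34 and 1.10), and in ADGRG1 the osimertinib arrays (5.07 to 5.21) lie below vehicle and the cisplatin arrays (5.82 to 6.10) above it.

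The remaining receptors of the adhesion family changed by less. ADGRE5 (CD97) was at 8.49, 8.64 and 8.53 with vehicle and 8.33, 8.43 and 8.27 with osimertinib, and it fell by 0.21 (SE 0.063, adjusted p = 0.0209). That call was lost without vehicle replicate 2 (adjusted p = 0.0961), osimertinib replicate 1 (adjusted p = 0.0582) or osimertinib replicate 3 (adjusted p = 0.0807), and with median centring (adjusted p = 0.142). With cisplatin ADGRE5 differed by 0.05 (adjusted p = 0.6), and between the drugs by -0.26 (adjusted p = 0.0595). The difference between the drugs had adjusted p = 0.0414 without cisplatin replicate 1 and up to 0.222 over the 18 alternatives. ADGRL2, a latrophilin, was at 5.60, 6.04 and 5.81 with vehicle and 6.46, 6.10 and 6.02 with osimertinib, which overlap. It was called higher by 0.38 (SE 0.13, adjusted p = 0.0448), and the call was lost in 6 of the 9 fits that left out 1 array: those without vehicle replicate 1 (adjusted p = 0.181), vehicle replicate 3 (0.104), cisplatin replicate 1 (0.0516), cisplatin replicate 3 (0.0566), osimertinib replicate 1 (0.192) and osimertinib replicate 2 (0.0585). ADGRB1, ADGRL1 and ADGRL3 were not called in any comparison, with differences from vehicle of -0.14 to 0.26.

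Receptors for lipid and amine mediators gave single calls. LPAR6, a receptor for lysophosphatidic acid (Entrez gene 10161), was at 5.13, 4.97 and 5.07 with vehicle, 4.60, 4.68 and 4.75 with cisplatin, and 4.77, 4.91 and 4.76 with osimertinib, and all treated arrays were below all vehicle arrays. It fell by 0.38 with cisplatin (SE 0.10, adjusted p = 0.0122) and differed by -0.24 with osimertinib (SE 0.10, adjusted p = 0.0864). LPAR6 lies inside RB1 on the opposite strand, and RB1 fell as well, by 0.29 (adjusted p = 0.00173) and 0.31 (adjusted p = 9.23e-04); its part in the LPAR6 result was not tested. LPAR1 had differences of 0.31 and 0.08 (adjusted p = 0.198 and 0.779).

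HRH1, the histamine receptor of allergic responses, was at 5.62, 5.30 and 5.39 with vehicle, 5.83, 5.78 and 5.75 with cisplatin, and 5.41, 5.53 and 5.51 with osimertinib. The cisplatin arrays lay above both other groups. HRH1 rose by 0.35 with cisplatin (SE 0.10, adjusted p = 0.0187), a call lost without vehicle replicate 2 (adjusted p = 0.0829) or vehicle replicate 3 (adjusted p = 0.0623), and it differed by 0.05 with osimertinib (adjusted p = 0.75). Between the drugs the HRH1 difference was -0.30 (SE 0.10, adjusted p = 0.222). HRH2, which raises cyclic AMP, differed by 0.05 and 0.09.

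PTGER4, which encodes the EP4 receptor through which prostaglandin E dampens macrophage cytokine release, was at 7.53, 7.68 and 7.62 with vehicle, 7.73, 7.76 and 7.80 with cisplatin, and 7.90, 7.82 and 7.74 with osimertinib. The treated arrays were slightly above the vehicle arrays in each drug. PTGER4 rose by 0.21 with osimertinib (SE 0.066, adjusted p = 0.0287) and differed by 0.15 with cisplatin (SE 0.066, adjusted p = 0.105). The osimertinib call was lost without vehicle replicate 1 (adjusted p = 0.113), vehicle replicate 3 (0.062), osimertinib replicate 1 (0.103) or osimertinib replicate 2 (0.0725). ADORA2B, a low-affinity adenosine receptor, differed by 0.29 and 0.33 (adjusted p = 0.0856 and 0.051). S1PR2, a sphingosine 1-phosphate receptor that inhibits migration, had the value 5.60 on all 3 vehicle arrays, so its vehicle spread is not known. It was at 4.99, 5.60 and 5.36 with cisplatin and 5.96, 5.83 and 5.71 with osimertinib, a difference of 0.52 between the drugs (SE 0.14, adjusted p = 0.0813).

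Of the enzymes that make or clear small receptor ligands, 8 of 22 were tested, and 3 were higher and 0 lower with each drug (37.5%, beside 31.0% and 30.6% of all tested genes). SGPP1, a phosphatase that removes sphingosine 1-phosphate, rose by 0.83 (adjusted p = 6.65e-05) and by 1.00 (adjusted p = 1.53e-05). PTGES3, a co-chaperone also named as a prostaglandin E synthase, rose by 0.47 (adjusted p = 2.97e-04) and by 0.55 (adjusted p = 8.65e-05). With the mean over its 2 probe sets the PTGES3 differences were 0.23 (adjusted p = 0.0873), no longer called, and 0.30 (adjusted p = 0.0303). SPHK1, a kinase that makes sphingosine 1-phosphate, rose by 0.55 with cisplatin (adjusted p = 0.00162) and differed by 0.26 with osimertinib. ADK, which clears adenosine, rose by 0.25 with osimertinib (adjusted p = 0.0348), a call lost without vehicle replicate 1 (adjusted p = 0.0698), vehicle replicate 2 (0.145), osimertinib replicate 1 (0.112) or osimertinib replicate 2 (0.112).

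Among the orphan and related GPR genes, GPR6 and GPR108 were called besides GPR52 and GPR158. GPR6, which raises cyclic AMP without added ligand, was at 4.72, 4.98 and 4.63 with vehicle and 5.36, 5.00 and 5.08 with cisplatin, narrowly apart, and rose by 0.37 (SE 0.12, adjusted p = 0.0376). The GPR6 call was lost without vehicle replicate 1 (adjusted p = 0.105), vehicle replicate 3 (0.139), cisplatin replicate 1 (0.134) or cisplatin replicate 3 (0.0621). GPR108, a Golgi membrane protein whose action as a G protein-coupled receptor is not settled, was at 5.13, 5.26 and 5.27 with vehicle and 5.70, 5.41 and 5.53 with osimertinib. It rose by 0.33 (SE 0.10, adjusted p = 0.0292), and the call was lost without vehicle replicate 1 (adjusted p = 0.0997), vehicle replicate 2 (0.0547), osimertinib replicate 1 (0.115) or osimertinib replicate 3 (0.0597). FZD3, described above, lost its osimertinib call without vehicle replicate 2 (adjusted p = 0.134), vehicle replicate 3 (0.092), cisplatin replicate 3 (0.0503), osimertinib replicate 1 (0.115) or osimertinib replicate 3 (0.134). GPR84, GPR65 and GPR132 were not called in any comparison. GPR84, a receptor for medium-chain fatty acids, differed by 0.26 and -0.11 (adjusted p = 0.0976 and 0.487), and its cisplatin arrays lay above all vehicle and osimertinib arrays. GPR65, an acid sensor, differed by 0.04 and -0.05, and GPR132, another acid-responsive receptor, by 0.02 and -0.01.

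The third comparison set osimertinib directly against cisplatin, 2 different drugs at different doses. Lower levels with osimertinib were called for ADGRG1 and CXCR4, and higher levels for 0 of the 41 receptor genes. That is 4.88%, where 1.75% of all tested genes were called (0.981% lower and 0.766% higher). At 3 arrays a group, 10 receptor genes had all osimertinib arrays below all cisplatin arrays and 2 had them above, 24.4% and 4.88%, against 6.88% and 7.44% of all tested genes. The 10 included FZD8, CXCR4, CCR1, GPR158, HRH1 and ADGRG1, whose single differences are given above. Without cisplatin replicate 1 the number called lower was 5, without both replicates that stood apart 4, and without cisplatin replicate 2 there was 1 called higher. With all 14884 named genes tested, whatever their level, 13 of the 141 receptor genes were called with cisplatin, 15 with osimertinib and 2 between the drugs. Of all 14884 genes 2186 (14.7%), 2198 (14.8%) and 76 (0.511%) were called. The share of receptor genes was thus smaller than that of all genes with each drug, and larger between the drugs. Of the 100 receptor genes below the limit 4, 5 and 0 were called, beside 4.18%, 4.10% and 0.0672% of all genes below it.

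**Figure D4:**
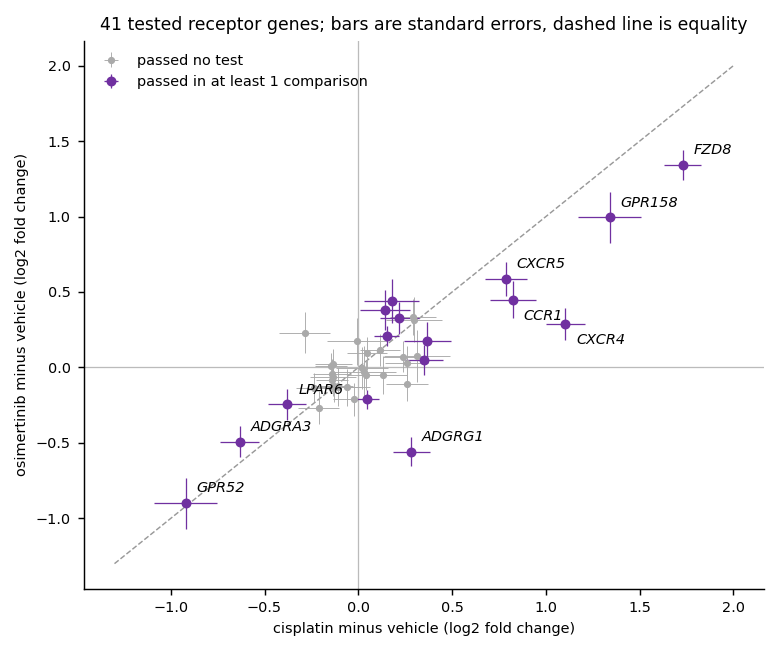
Log2 fold change against vehicle with cisplatin (horizontal axis) and osimertinib (vertical axis) for the 41 tested receptor genes, with standard errors; purple points were called in at least 1 comparison and the dashed line marks equal changes. Both axes share the 3 vehicle arrays. CXCR4 (1.10 and 0.29) and ADGRG1 (0.28 and -0.56) lie far below the line, and FZD8 is the point at the top right.

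Downstream of the receptors, the table names few components. Of 30 G protein subunits 2 were named and tested, GNAS and GNA12, and 0 were called. GRK6, a kinase that phosphorylates active receptors, was 1 of 2 tested among receptor kinases and arrestins and rose by 0.42 with cisplatin (adjusted p = 0.00564) and by 0.59 with osimertinib (adjusted p = 5.32e-04). Of the RGS proteins 6 of 19 were tested, with 1 higher and 2 lower with cisplatin and 0 higher and 3 lower with osimertinib (50% of the 6 with each drug, beside 31.0% and 30.6% of all tested genes). RGS13 fell by 1.33 (adjusted p = 9.60e-06) and by 1.30 (adjusted p = 1.19e-05), and RGS1, which limits chemokine receptor signalling, by 0.53 (adjusted p = 2.72e-05) and 0.40 (adjusted p = 2.19e-04). RGS14 rose by 0.50 with cisplatin (adjusted p = 0.00804), and RGS16 fell by 0.48 with osimertinib (adjusted p = 2.80e-04). Of 28 genes of the cyclic AMP branch 9 were tested, with 2 lower with cisplatin (22.2%) and 1 higher with osimertinib (11.1%). Both shares were below those of all tested genes, 31.0% and 30.6%. ADCY8 fell by 0.45 with cisplatin (adjusted p = 0.00868). CREB1 fell by 0.36 with cisplatin (adjusted p = 0.0421; up to 0.177, without vehicle replicate 1), and ADCY7 rose by 0.38 with osimertinib (adjusted p = 0.0252; up to 0.117, without osimertinib replicate 3). The phospholipase C list had 0 of 13 genes named.

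Of 56 other G protein-coupled receptor genes outside the rule 24 were tested, with 4 higher and 4 lower with cisplatin (33.3%, beside 31.0% of all tested genes) and 4 higher and 7 lower with osimertinib (45.8%, beside 30.6%). Between the drugs 1 was higher and 1 lower with osimertinib (8.33%, beside 1.75%). SUCNR1, the succinate receptor, rose by 0.58 (adjusted p = 0.0021) and by 1.24 (adjusted p = 5.82e-06), and was higher with osimertinib than with cisplatin (0.66, adjusted p = 0.0114). C5AR2 was lower with osimertinib than with cisplatin (-0.36, adjusted p = 0.0389), a call lost in 7 of 9 fits that left out 1 array. C5AR1 fell by 0.56 (adjusted p = 4.81e-04) and by 0.92 (adjusted p = 8.65e-06). F2R, the thrombin receptor, fell by 0.71 (adjusted p = 9.44e-04) and by 0.87 (adjusted p = 2.04e-04). CNR1 rose by 0.33 with cisplatin (adjusted p = 4.05e-04) and by 0.20 with osimertinib (adjusted p = 0.0121). With the mean over its 3 probe sets CNR1 was no longer called, with differences of 0.145 and 0.013 (adjusted p = 0.112 and 0.909). ADRA2B rose by 0.72 with osimertinib (adjusted p = 6.60e-04). Its rise of 0.35 with cisplatin (adjusted p = 0.0467) lost the call in 6 of 9 fits that left out 1 array. ACKR3, a decoy receptor that binds the CXCR4 ligand CXCL12, differed by -0.27 with cisplatin (adjusted p = 0.23) and fell by 0.82 with osimertinib (adjusted p = 0.00135). CCRL2, a non-signalling chemokine-binding receptor, rose by 0.57 with cisplatin (adjusted p = 0.00263) and differed by 0.19 with osimertinib (adjusted p = 0.24).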

How the data were processed

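The authors deposited 1 table of log2-like values with 53617 rows for 9 arrays. Per the deposited design text, a service provider summarized the scans per gene with standard Affymetrix pipelines. The submitters' processing notes list Affymetrix Power Tools. The background correction, the normalization and the log base are unstated; the values were read as log2 from their range. At equal ranks the highest and lowest of the 9 columns were 0.0929 apart on average, so a change shared by most transcripts would be hidden.

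The platform annotation, which can be old, named 16098 rows with 1 gene each. All matched RefSeq by Entrez identifier (GRCh38.p14), giving 14884 genes. The brightest row stood for a gene, which applied to 8 receptor genes with several rows. Genes at or above the median mean of 4.28 were tested (7442), with limma 3.58.1 in R 4.3.3: 1 model of 3 group means (6 residual degrees of freedom), empirical Bayes with trend and robust fitting, two-sided, Benjamini-Hochberg adjusted over all tested genes, called under 0.05. Nearly identical genes can share probes. Of the 41 tested receptor genes 15 had at least 2 equal values in a group, which narrows its spread, among them the called genes ADGRG1 (vehicle), CCR1 (osimertinib) and GPR108 (cisplatin), and 4, none called, had 1 value on all 3 arrays of a group. The number of arrays, 3 a group, also limits the precision.

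The receptor genes, lists and alternatives were chosen with earlier results of these data known. Named are called receptor genes, the 6 highest, the tested genes of the leukocyte receptor and Frizzled families, those at the limit, and up to 6 called genes per list; others were named after their values were seen. The labels number the replicates alike in each group; of 9 same-number pairs of arrays 1 correlated above 0.1 in its deviations from the group means, so the numbers were not used as a block.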

Additional observations from a re-analysis of the deposited data

Results flagged for a closer look

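The responses of 2 receptor genes differed between the drugs by the direct test. For ADGRG1 the response to osimertinib minus that to cisplatin was -0.84 on the log2 scale, with adjusted p between 1.13e-04 and 0.00561 over its 17 alternatives. For CXCR4 it was -0.81, with adjusted p between 9.43e-05 and 0.00909 over 18 alternatives. In each gene 3 of 3 osimertinib arrays lay below the 3 cisplatin arrays.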

How the results depend on the processing

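Each result was recomputed under 18 alternatives, 1 of them (without both cisplatin replicate 1 and osimertinib replicate 1) chosen after seeing the data. Of 25 calls of receptor genes, 16 held in every alternative that could be fitted, 9 were lost in at least 1 and 0 reversed. Genes higher with cisplatin numbered 8, or 4 with the stricter level limit and 14 with quantile normalization on top, and 5 to 8 without 1 array. Genes lower with cisplatin numbered 3, or 6 without the level limit and 1 with the stricter one. Genes higher with osimertinib numbered 8, or 5 with the replicate block, 4 without both outlying arrays and 4 to 8 without 1 array, and genes lower numbered 4, or 8 without the limit and 2 with the stricter one. Between the drugs 0 were higher, or 1 with quantile normalization and 0 to 1 without 1 array, and 2 lower, or 4 with quantile normalization, 4 without both outlying arrays and 2 to 5 without 1 array. The difference of GPR52 between the drugs, not called at 0.02, turned to -0.10 without both outlying arrays and lay between -0.18 and 0.22 without 1 array; that of HRH1 with osimertinib (0.05) turned to -0.018 without vehicle replicate 2, with a range of -0.018 to 0.14 without 1 array. The replicate block gave 6 higher and 3 lower with cisplatin; 2 of 9 arrays correlated best with an array of their own number. Over all tested genes the calls split into 1227 higher and 1081 lower with cisplatin (1968 and 975 with quantile normalization) and 1255 higher and 1022 lower with osimertinib (2005 and 932 with quantile normalization, 1536 and 734 with median centring). The causes were not tested, except that the stricter limit leaves 15 receptor genes and no limit tests 141. Of 59 calls of genes in the related lists, 43 held in every fit that left out 1 array.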

Other observations

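Some receptor genes below the level limit moved too, as seen when all 14884 genes were tested; these were named after their values were seen. Of the 100 receptor genes below the limit, 1 was higher and 3 lower with cisplatin, and 1 higher and 4 lower with osimertinib, and 0 between the drugs, where 4.18%, 4.10% and 0.0672% of all genes below the limit were called, so the shares are near the background. GPR137C was at 3.99, 3.56 and 3.97 with vehicle, 3.00, 3.17 and 2.56 with cisplatin, and 3.28, 3.28 and 3.10 with osimertinib. Its differences from vehicle were -0.93 (adjusted p = 0.0028) and -0.62 (adjusted p = 0.0274), cisplatin first. GPR63, an orphan receptor of the brain, differed by -0.72 (adjusted p = 0.015) and -0.66 (adjusted p = 0.0234). GPR50, a relative of the melatonin receptors, was higher by 0.39 (adjusted p = 0.0206) and 0.33 (adjusted p = 0.046). GPR135 differed by -0.38 (adjusted p = 0.038) and -0.37 (adjusted p = 0.0433). ADGRD1 differed by -0.53 with osimertinib (adjusted p = 0.0264).

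The 2 probe sets of GPR89A disagreed. The brighter one, with a mean of 5.52, differed by -0.14 with cisplatin and -0.04 with osimertinib, and the dimmer one, with a mean of 4.70, by -1.18 and -1.06. GPR89B, a near-identical copy whose probes cannot be taken as separate, differed by -0.24 and -0.13. The 2 probe sets of LPAR1 also disagreed, with 0.31 and 0.08 for the one used and -0.03 and -0.48 for the other.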
